A study of Mus musculus with 24 samples.

Results

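The genes of DNA replication and mitosis were followed in livers of male C57BL/6N mice that had been pair-fed or given ethanol. The set was named by hand and held 37 genes: 12 of the pre-replication complex and the MCM helicase, 7 of the replication fork and nucleotide supply, 6 of S-phase entry, and 12 of G2 and mitosis. An array feature was counted for a gene when the accession given for it in the scanner files matched that gene's symbol. This found 46 probes for 35 of the genes, and Gins1 and Mki67 had no matched probe. Of the 35, 33 passed the filter on dim probes, out of 16158 genes that passed it in the whole series. Orc1 and Bub1 were too dim to be tested.

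Each of 24 liver RNA samples was measured on 1 Agilent array with 2 dyes, liver RNA in Cy5 and a reference RNA in Cy3, so each value is a log2 ratio of liver over reference. The labels give 6 groups. The pair-fed controls comprised 4 samples at 8 weeks and 3 at 10 days. Ethanol diet alone for 8 weeks gave 5 samples, the same diet and length closed by 1 binge of 5 g of ethanol per kg gave 5, and 10 days of the diet closed by 1 such binge gave 3. The repeated-binge group had 8 weeks of ethanol with binges of 5 g per kg given 2 times per week (n = 4). No group had the ethanol diet for 10 days without a binge, so 10-day differences combine diet and binge, as does the single binge against pair feeding after 8 weeks. No group carried a genetic change that the labels name. The labels give neither the animals' age nor the time from the binge to sampling, and they do not say that the arrays of a group came from separate animals, so a p-value here reflects the spread among the arrays, which may be technical.

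Replication begins when origins are loaded with the ring-shaped MCM2 to MCM7 helicase, and MCM10 then helps to activate it and to bring in the polymerase. E2F transcription factors switch on S-phase genes, among them cyclin E, thymidine kinase and the MCM genes, while mitotic genes such as cyclin B and Plk1 are switched on later through FOXM1 and MYB-containing complexes. Adult hepatocytes are mostly quiescent and re-enter the cycle after injury or loss of liver mass, so most of these transcripts are scarce in resting liver.

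Most of these genes had group means close to the reference, though 16 of the 33 were called in at least 1 comparison. The share of all genes called in at least 1 was not counted. In the comparison of repeated with single binges by itself, 12% of all genes were higher and 17.4% lower. The range of group means was 2.89 for Mcm10, 2.42 for Tk1, 0.74 for Foxm1 and 0.62 for Cdc20, and smaller for the others. In 30 of the 33 genes every group mean lay within 0.5 of 0 on the log2 scale, and the exceptions were Mcm10, Tk1 and Birc5. In 23 genes the liver channel was well above background on all 24 arrays. Cdc6, the loader of the helicase, Pola1, a polymerase subunit, and Bub1b, a checkpoint kinase, were so on fewer than 12 arrays. The kinases Cdk1 and Cdk2 were so on 13 arrays each. Cdc6 was not well above background on any array of the 10-day pair-fed, 10-day binge and repeated-binge groups, Pola1 on none of the 8-week pair-fed and ethanol groups, and Bub1b on none of the 8-week pair-fed group. The reference limits what a ratio near 0 says. Its labels name both assorted mouse RNA and liver, and the ratio of 10 hepatocyte markers to it had a median of only 0.16.

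The arrays were scanned in 3 sessions. The 8-week pair-fed and ethanol livers shared scan 1 with the 8-week single-binge livers. The 10-day livers made up scan 2, and scan 3 was the repeated-binge group alone. Comparisons within a scan are therefore given first. In comparisons with the repeated-binge group, and between the pair-fed groups, scan and group cannot be told apart. Between arrays of scan 1 the Cy3 reference correlated across probes at a median r of 0.985, and between scans 1 and 3 at 0.928.

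**Figure D1:**
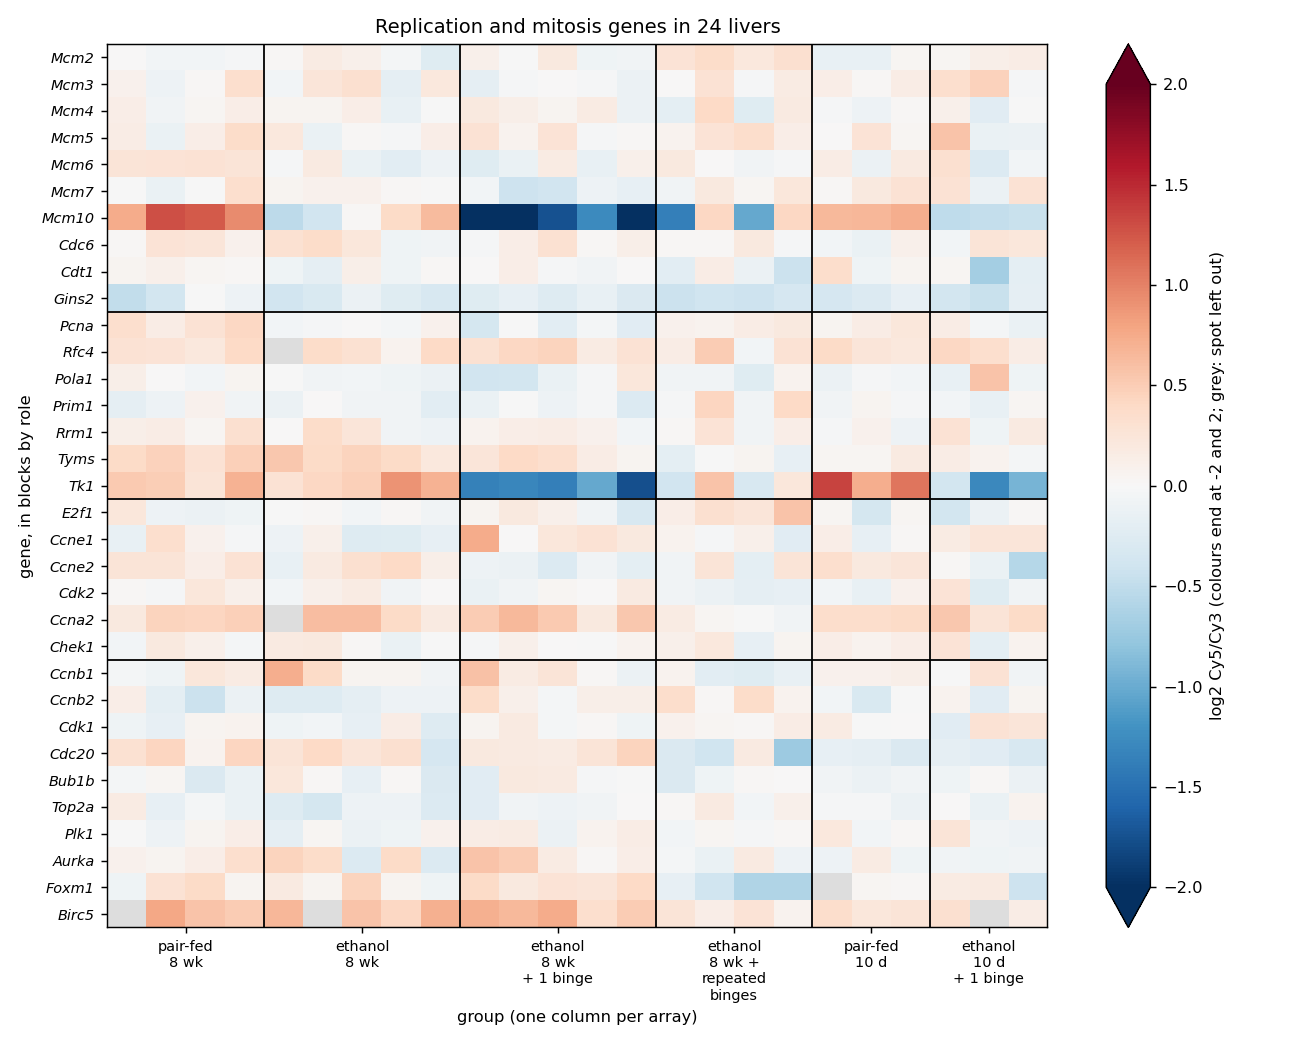
Log2 Cy5/Cy3 of the 33 tested genes (rows, in blocks by role) on each of the 24 arrays (columns, by group); red is higher in liver than in the reference, blue lower, and the colours end at -2 and 2. Mcm10 and Tk1 are the rows with strong colour, blue on the single-binge arrays, while most other rows stay pale.

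The 2 genes with the largest differences, and for comparison a helicase gene and a mitotic cyclin, have the following sequences before their start sites. They come from RefSeq's promoter windows on GRCm38.p6, which had an entry for 31 of the 37 genes, and each is the gene's own strand read 5′ to 3′. Capitals mark CCAAT, CHR-type (TTTGAA) and E2F-type (TTTCCCGC, TTTCGCGC, TTTGCCGC or TTTGGCGC) letters on either strand. The stretches lie on the minus strand at chr11:117826088-117826264, chr2:5012792-5013041, chr1:128359706-128359955 and chr9:70421555-70421804.
Tk1: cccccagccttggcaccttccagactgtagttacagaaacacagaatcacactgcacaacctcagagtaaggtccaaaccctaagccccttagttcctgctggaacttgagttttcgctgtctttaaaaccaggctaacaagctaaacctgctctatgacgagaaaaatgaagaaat
Mcm10: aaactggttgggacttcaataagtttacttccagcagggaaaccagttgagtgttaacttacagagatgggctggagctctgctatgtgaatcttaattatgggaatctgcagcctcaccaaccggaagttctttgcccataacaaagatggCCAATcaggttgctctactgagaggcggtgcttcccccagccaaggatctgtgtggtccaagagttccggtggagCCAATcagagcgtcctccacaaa
Mcm6: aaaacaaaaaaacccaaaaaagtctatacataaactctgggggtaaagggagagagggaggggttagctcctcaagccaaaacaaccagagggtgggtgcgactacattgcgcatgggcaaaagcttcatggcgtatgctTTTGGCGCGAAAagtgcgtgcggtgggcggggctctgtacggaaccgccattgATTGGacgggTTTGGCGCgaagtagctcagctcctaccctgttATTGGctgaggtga
Ccnb2: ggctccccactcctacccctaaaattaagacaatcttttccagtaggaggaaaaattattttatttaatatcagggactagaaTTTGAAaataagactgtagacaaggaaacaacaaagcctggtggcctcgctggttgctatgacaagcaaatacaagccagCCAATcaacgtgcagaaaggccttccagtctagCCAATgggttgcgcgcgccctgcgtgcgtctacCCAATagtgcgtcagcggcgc

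In the whole windows, which run past the start site, an E2F-type motif was present in 10 of 31 members (32.3%) against 2.32% of 27025 genes. CCAAT was in 22 of 31 (71.0%) against 37.9%, and the CHR-type motif in 9 of 31 (29.0%) against 18.1%. Overlapping matches were each counted. By role, the E2F-type motif was in 9 of the 20 windows of genes outside mitosis and in 1 of the 11 mitotic ones, and the CHR-type motif in 1 of the 20 and 8 of the 11. Neither the Tk1 nor the Mcm10 window held an E2F-type or a CHR-type match. The Mcm10 window held CCAAT 3 times, 2 of them in the printed stretch, and the Tk1 window not at all. A match describes these letters only, and its absence says nothing about a factor.

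Tk1, the cytosolic thymidine kinase that salvages thymidine for DNA synthesis, was lower in single-binge than in pair-fed livers of both feeding schedules. Its log2 ratio was 0.52, 0.49, 0.26 and 0.69 in 8-week pair-fed livers and 0.30, 0.41, 0.47, 0.90 and 0.70 in 8-week ethanol livers. After 8 weeks of ethanol with 1 binge it was -1.36, -1.31, -1.37, -1.03 and -1.77. Every single-binge array lay below every array of both other groups, and the pair-fed and ethanol groups overlapped. Against pair-fed mice Tk1 fell by 1.86 ± 0.20 (log2 difference ± SE, n = 5 and 4), which is 3.62-fold (adjusted p = 1.04e-06). Against ethanol without a binge Tk1 fell by 1.92 ± 0.19 (n = 5 and 5, adjusted p = 2.99e-07). Slide by slide, it was lower on 4 of 4 slides shared with pair-fed livers and on 5 of 5 shared with ethanol livers. Tk1 RNA in a bulk liver can fall because fewer cells carry it or because each carries less, and these cannot be told apart here.

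After 10 days the pair-fed arrays read 1.36, 0.72 and 1.07, and the arrays with ethanol and 1 binge -0.37, -1.29 and -0.93. These groups did not overlap, and Tk1 fell by 1.92 ± 0.24 (n = 3 and 3, adjusted p = 2.28e-05). The differences from pair feeding after 8 weeks and after 10 days differed by 0.06, with a 95% interval from -0.58 to 0.70 (adjusted p = 0.959). Ethanol for 8 weeks without a binge gave a Tk1 difference of 0.07 ± 0.20 from pair-fed mice (adjusted p = 0.989). In Cy5 alone the 3 differences of single-binge livers were -2.09, -2.06 and -1.81, close to those of the ratios.

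Mcm10, the factor that helps to activate the helicase at origins, had the widest range of group means among the 33 genes. Its log2 ratio was 0.74, 1.29, 1.23 and 0.94 in 8-week pair-fed livers. In 8-week ethanol livers it was -0.52, -0.39, 0.02, 0.38 and 0.64, below every pair-fed array. With 1 binge after 8 weeks it was -2.02, -2.07, -1.74, -1.27 and -2.09, below every ethanol array. The 3 groups were thus ordered without overlap. Mcm10 fell by 2.89 ± 0.29 in single-binge against pair-fed livers, which is 7.41-fold (adjusted p = 6.38e-07). Against ethanol without a binge it fell by 1.86 ± 0.28 (adjusted p = 4.83e-05). The difference between ethanol without a binge and pair-fed livers was -1.02 ± 0.29 (95% interval -1.63 to -0.42) and did not pass the test (adjusted p = 0.211).

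In 10-day livers Mcm10 read 0.65, 0.66 and 0.73 with pair feeding, and -0.51, -0.47 and -0.45 with ethanol and 1 binge. The groups did not overlap, and the fall of 1.16 ± 0.36 was just past the threshold (adjusted p = 0.0493). That call was lost in 16 of the 24 fits that left out 1 array, where the highest adjusted p was 0.135. The 8-week difference from pair feeding minus the 10-day one was -1.73 ± 0.46 (interaction, adjusted p = 0.0365), a larger difference of ethanol with a binge from pair feeding after 8 weeks, and this call was lost in 11 of those 24 fits (highest adjusted p 0.0839). The feeding schedules lay in different scans, so this comparison is between differences made within each scan.

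**Figure D2:**
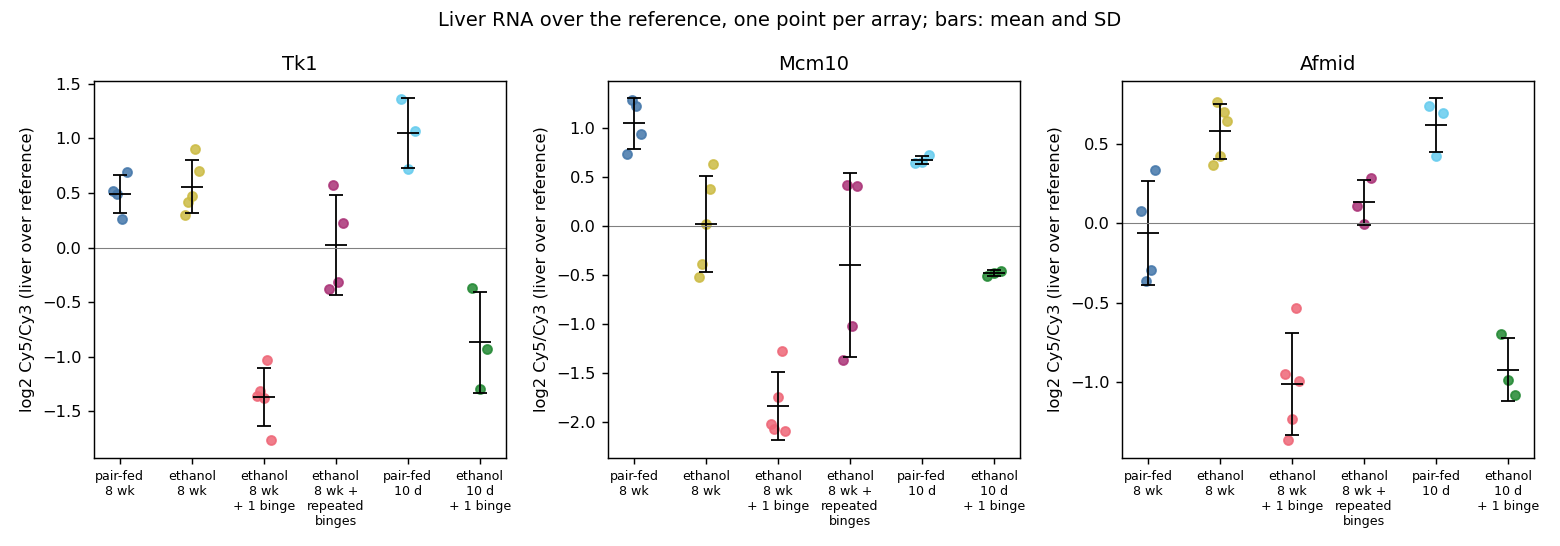
Log2 Cy5/Cy3 of Tk1, Mcm10 and Tk1's neighbour Afmid by group, 1 point per array, with mean and SD. In all 3 panels the 8-week single-binge arrays lie below the 8-week pair-fed and ethanol arrays, and the 10-day binge arrays below the 10-day pair-fed ones.

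Both genes were each read by 1 probe, and no other matched probe was there to set beside it. With no probe sequences used here, neither probe was placed on a transcript or checked for binding to other transcripts. Their chromosomal neighbours were therefore looked up in the RefSeq gene table, a choice made after the values were seen. Afmid, which encodes a formamidase of tryptophan breakdown, overlaps Tk1 on mouse chromosome 11. Its ratio on the 8-week pair-fed arrays was 0.08, -0.36, -0.29 and 0.34. With ethanol for 8 weeks it was 0.37, 0.77, 0.42, 0.70 and 0.64, and with 1 binge it lay between -1.37 and -0.53. The single-binge arrays lay below both other groups. Afmid fell by 0.96 ± 0.15 against pair-fed mice (adjusted p = 0.000142) and, against ethanol alone, fell by 1.60 ± 0.14 (adjusted p = 1.79e-07). After 10 days it fell by 1.54 ± 0.19 (adjusted p = 1.93e-05). Birc5, a member of the set and the nearest gene on one side of Tk1, differed by -0.02, 0.00 and -0.05 in these comparisons (adjusted p = 0.920, 0.991 and 0.909). Syngr2, on Tk1's other side, differed by -0.21, -0.23 and -0.41 and was not called, with a lowest adjusted p of 0.0505. Ucma and Optn, which flank Mcm10, were not called in any comparison within a scan.

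Across the set, 4 of the 33 genes were lower and 0 higher after 8 weeks of ethanol with a single binge than after pair feeding, where 8.75% of all genes tested were lower and 7.57% higher. By the limma fit, 7 of the 33 had an unadjusted p under 0.05, beside 4344 of all 15731 genes tested. The median difference was -0.02, beside 0.02 over all genes. The 4 were Mcm10, Tk1, Pcna and Ccne2. Pcna, the sliding clamp of the polymerases, read 0.33, 0.15, 0.28 and 0.42 in pair-fed and -0.35, -0.01, -0.22, -0.04 and -0.22 in single-binge livers. Those groups did not overlap, and Pcna fell by 0.46 ± 0.08 (adjusted p = 0.000235). In ethanol livers without a binge it read -0.05, -0.03, 0.01, -0.03 and 0.08, also below every pair-fed array, with a difference of -0.30 that did not pass (adjusted p = 0.156). Single-binge livers differed from these by -0.16 (adjusted p = 0.147), with overlapping groups, so a change of Pcna with the binge itself was not called.

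Ccne2, an E-type cyclin of S-phase entry, read 0.25, 0.26, 0.13 and 0.30 in pair-fed and -0.10, -0.12, -0.27, -0.08 and -0.19 in single-binge livers. It fell by 0.39 ± 0.12 (adjusted p = 0.0228), without overlap of the groups. After 10 days it read 0.33, 0.19 and 0.25 with pair feeding and 0.02, -0.14 and -0.56 with a binge, a fall of 0.48 ± 0.14 (adjusted p = 0.0372). In Cy5 alone these differences were -0.41 and -0.30 and were not called (adjusted p = 0.146 and 0.645). Ccne2 thus moved the same way as Tk1 and Mcm10 but by far less. The call against pair-fed mice was lost without pair-fed array 2, pair-fed array 4 or single-binge array 3 (highest adjusted p 0.0648), and the 10-day call without any of 5 of the 6 arrays of its groups (highest adjusted p 0.227). With slide as a fixed block the 10-day difference was -0.57 and was not called (adjusted p = 0.0611).

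Against ethanol without a binge, 3 of the 33 were lower with a single binge (Tk1, Mcm10 and Ccne2) and 2 higher (Ccne1 and Ccnb2), beside 8.4% of all genes lower and 8.06% higher. Ccne1, the other E-type cyclin, read -0.11, 0.09, -0.26, -0.24 and -0.16 with ethanol alone and 0.75, 0.00, 0.23, 0.29 and 0.19 with a binge, with 1 array of each group overlapping. It rose by 0.43 ± 0.11 (adjusted p = 0.0104), and its dimmer second probe differed by 0.35 (adjusted p = 0.155 among single probes). Ccnb2, a mitotic B-type cyclin, read between -0.26 and -0.10 with ethanol alone and between -0.03 and 0.36 with a binge, and rose by 0.31 ± 0.10 (adjusted p = 0.0375). This call was lost in 7 of the 24 fits that left out 1 array (highest adjusted p 0.110). Ccne2 fell by 0.33 ± 0.11 (adjusted p = 0.0419), a call lost in 8 of them (highest adjusted p 0.123), and in Cy5 alone its difference was -0.18 (adjusted p = 0.659). Neither Ccne1 nor Ccnb2 was called in Cy5 alone, and under median centring in place of loess neither Ccnb2 nor Ccne2 was.

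Ethanol for 8 weeks without a binge gave 0 calls among the 33, by limma, where 0.0638% of all genes were higher and 0.0893% lower. In the same fit 4 of the 33 had an unadjusted p under 0.05, beside 1145 of all 15682 genes tested. Those 4 were Mcm10, Pcna, Mcm6 and Top2a, all with a group mean below that of pair-fed livers (differences of -1.02, -0.30, -0.32 and -0.17). Mcm6, a helicase subunit, also had no overlap between the groups. For Top2a the groups overlapped, and its second probe differed by -0.03. In 31 of the 33 genes the 95% interval of the difference lay within 0.5 on either side of 0. After 10 days of ethanol with 1 binge, 3 of the 33 were lower (Tk1, Mcm10 and Ccne2) and 0 higher, beside 2.9% and 4.32% of all genes. An unadjusted p under 0.05 by limma was reached by 4 of the 33, beside 3086 of all 15683 genes tested. The fourth was Cdt1, which loads the helicase, at -0.38 (adjusted p = 0.124). Beside these, 5 of 12 endothelial markers were higher and 0 lower, with mean ratios of the list from -0.56 to -0.37 over pair-fed and from -0.05 to 0.18 over binge arrays. Of 9 T and NK cell markers 2 were higher and 0 lower, and so were 2 of 11 stellate and 2 of 9 hepatocyte markers. Of 9 erythroid markers 0 were higher and 1 lower. The part of these cells in the 10-day results was not tested.

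**Figure D3:**
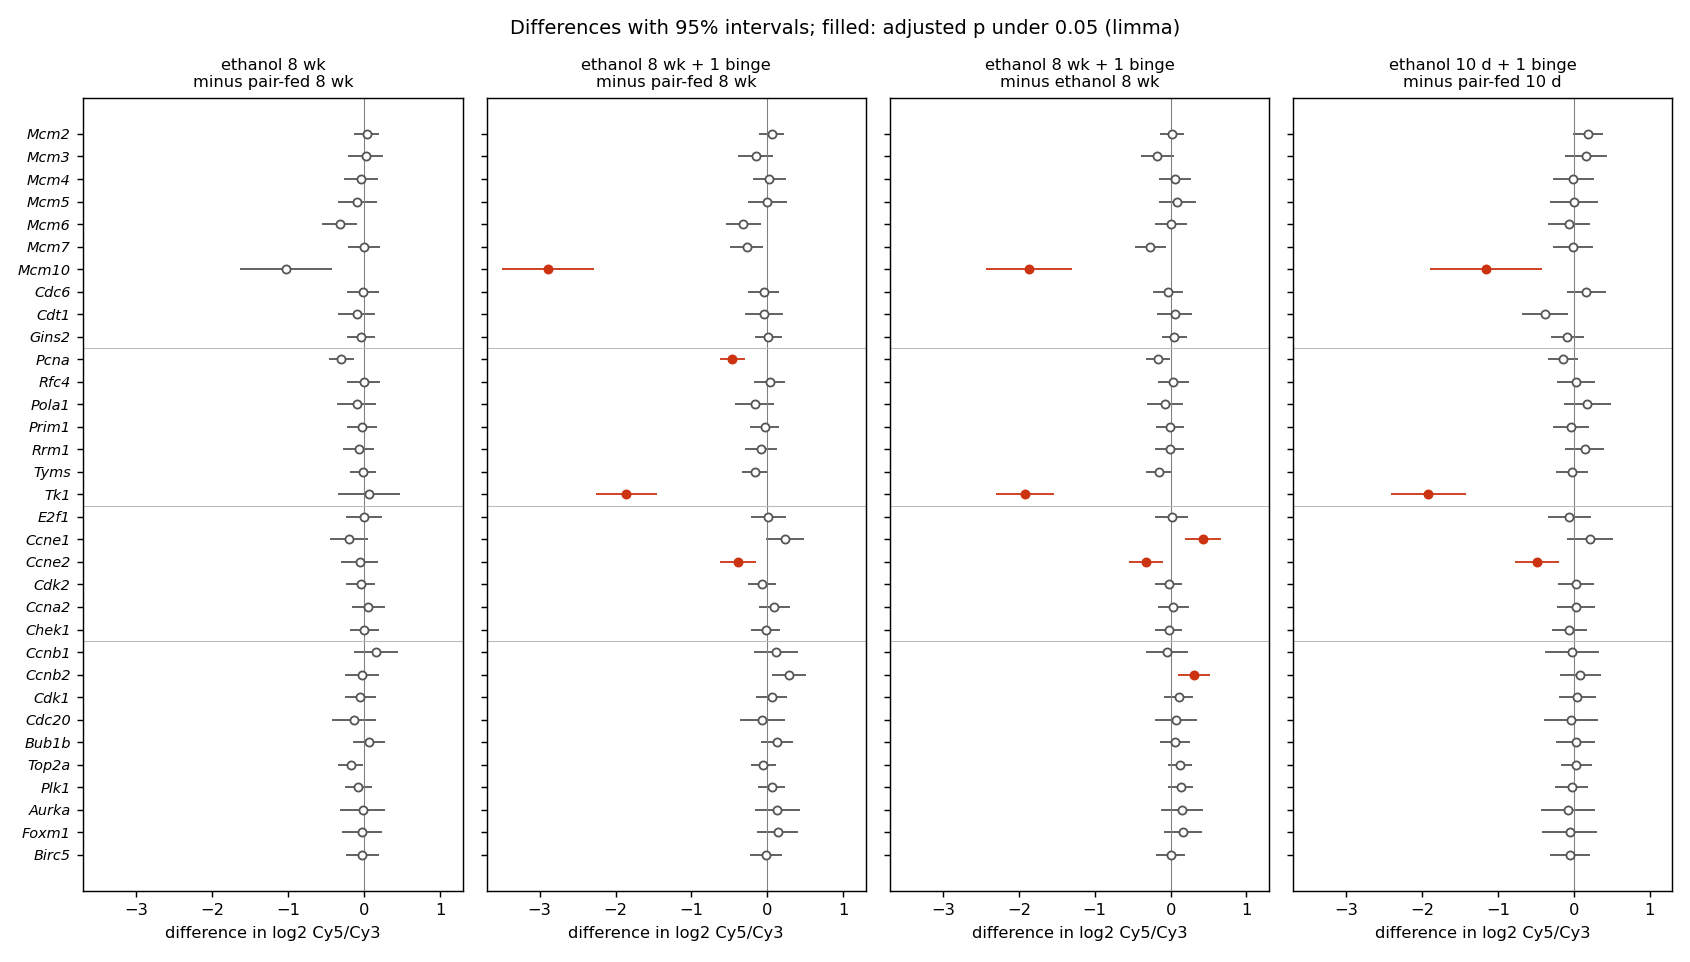
Differences in log2 Cy5/Cy3 (horizontal, with 95% intervals) of the 33 genes in the 4 comparisons within a scan, in blocks by role; filled red points had an adjusted p under 0.05. The filled points far from 0 are Mcm10 and Tk1, and most open points lie close to 0.

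By role, the 6 subunits of the helicase ring, Mcm2 to Mcm7, gave 0 calls by limma in the 4 comparisons within a scan. In each of the 4, at most 8.06% of all genes were higher and 8.75% lower, so 0 of 6 lies near the background. The differences of these 6 lay between -0.31 and 0.06 for the single binge after 8 weeks against pair feeding, with a lowest adjusted p of 0.0525 (Mcm6), and between -0.07 and 0.19 after 10 days. In the first of these Mcm3 differed by -0.16, Mcm4 by 0.03 and Mcm5 by -0.00, and Gins2, of the GINS complex that joins the helicase, by 0.01. Apart from Tk1 and Pcna, no gene of the fork and nucleotide group was called within a scan, and Tyms, which makes thymidylate, differed by -0.17 and Rrm1, a ribonucleotide reductase subunit, by -0.08 in single-binge against pair-fed livers, where Rfc4, of the clamp loader, differed by 0.03. Of the S-phase entry group, Cdk2, the kinase partner of cyclin E, differed by -0.07 and Chek1, a checkpoint kinase, by -0.02. Of the 10 mitotic genes tested, none was called in that comparison, and their median was 0.08. Among them 1 had an unadjusted p under 0.05 by limma, beside 4344 of all 15731 genes tested. Of all genes 7.57% were called higher and 8.75% lower there, so 0 of 10 lies near the background. Plk1, a mitotic kinase, differed by 0.06, Top2a, which untangles chromosomes, by -0.05, and Cdk1, the mitotic cyclin-dependent kinase, by 0.06. Ccnb1, a B-type cyclin, differed by 0.11 and Aurka, a spindle kinase, by 0.13.

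Other cell-cycle genes, taken from lists written from general knowledge, were read beside the set, with 7.57% of all genes higher and 8.75% lower in single-binge against pair-fed livers after 8 weeks, and 4.32% and 2.9% after 10 days. Of 37 other S-phase genes, 6 fell and 3 rose in single-binge against pair-fed livers after 8 weeks. Rfc2, a clamp-loader subunit, fell by 0.44 ± 0.08 (adjusted p = 0.000337). Tipin, of the fork protection complex, rose by 0.54 ± 0.09 (adjusted p = 0.000258). Of 50 other mitosis genes 1 rose and 1 fell. Spc24, a kinetochore protein, fell by 1.02 ± 0.11 (adjusted p = 1.25e-06), and Ccnf, cyclin F, rose by 0.69 ± 0.15 (adjusted p = 0.00303). After 10 days both moved likewise, by -0.91 and 0.81 (adjusted p = 0.000108 and 0.0086).

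Of 16 inhibitors of the cycle, 4 rose and 1 fell in that 8-week comparison, with a list median of 0.16. Cdkn1a, the p21 inhibitor of cyclin-dependent kinases, rose by 4.17 ± 0.55, the stress gene Gadd45b by 1.39 ± 0.19 and the antiproliferative gene Btg2 by 1.67 ± 0.38 (adjusted p = 1.32e-05, 2.39e-05 and 0.00303). After 10 days 0 of 16 were called by limma, with differences from -0.85 to 1.70. Of the 16, 2 had an unadjusted p under 0.05, beside 3086 of all 15683 genes tested. The change in Gadd45b differed between the schedules by 1.56 ± 0.30 (interaction, adjusted p = 0.00335). Of 19 G1 regulators, 2 fell and 1 rose after 8 weeks. Rbl2, the pocket protein p130, fell by 0.41 ± 0.09 after 8 weeks and by 0.74 ± 0.11 after 10 days (adjusted p = 0.00254 and 0.000151).

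Some markers of other liver cells were called in the same 8-week comparison, where 7.57% of all genes were higher and 8.75% lower. The lists are short, and whether their counts exceed those shares was not tested. Of 11 Kupffer cell and macrophage markers tested, 2 fell and 0 rose, Cd5l by 0.77 and Adgre1 by 0.68, and the mean ratio of the 12 measured ranged from -0.12 to 0.48 over pair-fed and from -0.62 to 0.35 over single-binge arrays. Of 9 erythroid markers 2 fell and 1 rose, with means from -0.22 to 0.02 and from -0.36 to 0.03. Neutrophil markers had 2 rises and 0 falls among 10, with means from -0.22 to -0.03 and from -0.03 to 0.39. Of 12 endothelial markers 2 rose and 3 fell, with means from -0.15 to -0.00 and from -0.53 to 0.05, and of 12 stellate markers 3 rose and 2 fell, with means from -0.20 to 0.02 and from -0.14 to 0.32. Every measured gene of these lists was well above background on at least 1 array of both groups, except 1 neutrophil marker in pair-fed livers. The part of these cells in the results on Tk1, Mcm10, Pcna and Ccne2 was not tested.

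The repeated-binge group differed from the 8-week groups in more of these genes, and for some of them its ratios and its Cy5 values disagreed. Against pair-fed mice 6 of the 33 were lower and 2 higher (12.5% and 8.04% of all genes). Against ethanol without a binge 5 were lower and 5 higher (14.7% and 10.2%), and against a single binge 5 lower and 7 higher (17.4% and 12%). Of these 30 calls, which involve 14 genes, 27 had the same sign in Cy5 alone and 17 were also called there. Of the 12 member calls within a scan, 12 had the same sign in Cy5 alone and 6 were also called there. The matching shares over all genes called by ratio were not counted. In Cy5 alone, of all 15552 genes tested for repeated against single binges, 4451 were higher and 2820 lower. For a single binge against pair feeding after 8 weeks, 341 of 15731 were higher and 1576 lower in Cy5.

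Tk1 and Mcm10 show the disagreement. Their ratios on the 4 repeated-binge arrays were -0.38, 0.58, -0.32 and 0.23 for Tk1, and -1.37, 0.42, -1.02 and 0.41 for Mcm10. Arrays 1 and 3 were low and arrays 2 and 4 high for both genes, and each of the 2 slides held 1 of each kind. By ratio, both were higher than after a single binge, Tk1 by 1.39 ± 0.20 (adjusted p = 3.65e-05) and Mcm10 by 1.45 ± 0.29 (adjusted p = 0.000893). In Cy5 alone, the quantile-normalized liver signal, these differences were 0.04 and 0.09 (adjusted p = 0.873 and 0.824). The Cy3 reference itself read lower on the repeated-binge arrays, by -1.47 for Tk1 and -1.41 for Mcm10.

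Against pair-fed mice, the Tk1 ratio of the repeated-binge group differed by -0.46 ± 0.21 (adjusted p = 0.113) and its Cy5 by -2.05. Mcm10 fell by 1.44 ± 0.31 by ratio (adjusted p = 0.00237) and in Cy5 it fell by 3.19. The mean log2 Cy5 signal of Tk1 was 10.41 in pair-fed, 10.37 in ethanol, 8.31 in single-binge and 8.36 in repeated-binge livers, and that of Mcm10 was 12.50, 11.16, 9.22 and 9.31. So in Cy5 both binge groups were low, while by ratio the repeated-binge group lay between. Scan 3 holds this group alone, so a change of the reference or scanner and an effect on the ratio cannot be told apart. Afmid was higher than after a single binge both by ratio (1.15 ± 0.17, adjusted p = 5.56e-05) and in Cy5 (1.22).

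**Figure D4:**
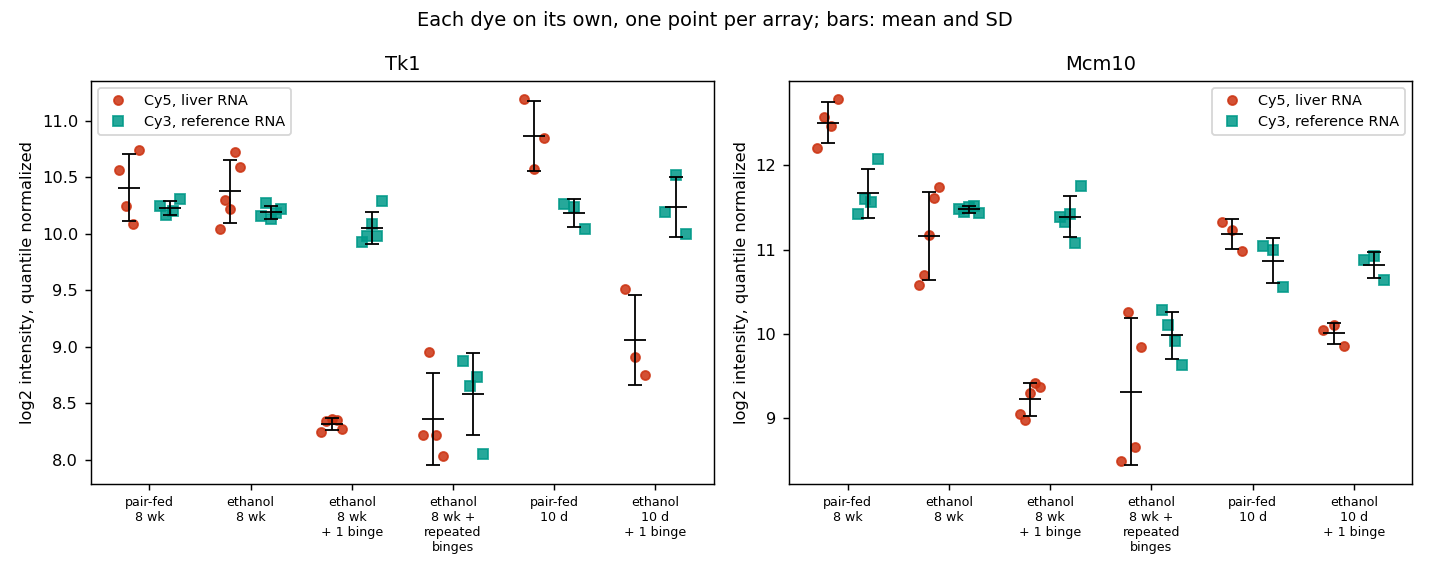
Log2 intensity of Tk1 and Mcm10 in each dye by group, 1 point per array, with mean and SD. The Cy5 (liver) means of both 8-week binge groups are close, with a wider spread in the repeated-binge group, and the Cy3 (reference) points of the repeated-binge group sit below those of the other groups.

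The members that were lower in the repeated-binge group than in a single-binge liver were Foxm1, Cdc20, Ccna2, Birc5 and Tyms. Foxm1, a transcription factor of mitotic genes, read -0.17, -0.40, -0.61 and -0.60, against 0.39, 0.20, 0.28, 0.24 and 0.40 after a single binge. It fell by 0.74 ± 0.13 (adjusted p = 0.00028) and by 0.62 in Cy5 (adjusted p = 0.022). Cdc20, an activator of the anaphase-promoting complex, read -0.28, -0.40, 0.18 and -0.72, against 0.19, 0.18, 0.16, 0.26 and 0.44, and fell by 0.55 ± 0.14 (adjusted p = 0.00544). The Foxm1 groups did not overlap, while 1 repeated-binge array for Cdc20 lay among the single-binge arrays.

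Ccna2, the cyclin of S and G2 phase, read 0.16, 0.03, -0.01 and -0.07, against 0.51, 0.65, 0.52, 0.19 and 0.55, and fell by 0.45 ± 0.10 (adjusted p = 0.00184). Birc5, the survivin gene, read 0.26, 0.13, 0.27 and 0.07, against 0.71, 0.66, 0.75, 0.33 and 0.50, and fell by 0.41 ± 0.09 (adjusted p = 0.00282). Both had no overlap with the single-binge group. In Cy5 the Ccna2 fall was 0.53 (adjusted p = 0.0159) and the Birc5 difference -0.73 (adjusted p = 0.0829). Tyms read -0.20, -0.00, 0.05 and -0.16, against 0.24, 0.40, 0.33, 0.15 and 0.05. It fell by 0.31 ± 0.08 (adjusted p = 0.00749), its second probe by 0.32 (adjusted p = 0.0392), and its Cy5 by 0.48 (adjusted p = 0.0158), with overlapping groups. With the scanner software's own ratio neither Tyms nor Cdc20 was called against a single binge. Tyms, Foxm1, Birc5, Ccna2 and Cdc20 were also called lower against both other 8-week groups. In Cy5 alone neither Ccna2 nor Birc5 was called there, nor was Cdc20 against pair feeding, and with the software's ratio Cdc20 was called against neither. Against pair feeding the Birc5 call was lost without pair-fed array 2 (adjusted p = 0.0535), and the Ccna2 call without that array or repeated-binge array 4 (highest adjusted p 0.0529). Against ethanol the Cdc20 call was lost without repeated-binge array 4 (adjusted p = 0.0824).

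The members that were higher in the repeated-binge group than in single-binge livers, beside Tk1 and Mcm10, were Mcm2, Mcm7, Pcna, Prim1 and E2f1. Mcm2, a helicase subunit, read 0.28, 0.37, 0.21 and 0.33, against 0.10, -0.01, 0.19, -0.08 and -0.07, without overlap, and rose by 0.27 ± 0.08 (adjusted p = 0.0129). Pcna read 0.09, 0.07, 0.14 and 0.19, above all single-binge arrays, and rose by 0.29 ± 0.08 (adjusted p = 0.0079). Both were higher in Cy5 too, by 0.61 and 0.84. The log2 Cy3 reference for Pcna read 9.12 to 9.62 on repeated-binge arrays, against 8.82 to 9.18 on single-binge arrays. For Mcm2 it read 7.07 to 7.66, against 7.07 to 7.31. How much of the Cy5 differences the reference shared was not tested.

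Mcm7, another helicase subunit, read -0.07, 0.20, 0.04 and 0.22, against -0.06, -0.41, -0.38, -0.10 and -0.16, and Prim1, the primase, read -0.02, 0.42, -0.07 and 0.40, against -0.13, -0.00, -0.10, -0.03 and -0.27. They rose by 0.32 ± 0.10 and 0.29 ± 0.09 (adjusted p = 0.0243 and 0.0252), with overlapping groups. Both channels read higher on the repeated-binge arrays. For Mcm7 log2 Cy5 was 8.26 to 8.65 against 7.24 to 7.72, and Cy3 8.32 to 8.73 against 7.64 to 8.20. For Prim1 Cy5 was 7.07 to 7.47 against 6.48 to 6.66, and Cy3 7.25 to 7.47 against 6.84 to 7.22. E2f1, the transcription factor, read 0.13, 0.32, 0.23 and 0.57, against 0.06, 0.20, 0.11, -0.06 and -0.32, and rose by 0.32 ± 0.11 (adjusted p = 0.0375), while its Cy5 differed by 0.11 (adjusted p = 0.616). Its second probe rose by 0.33 (adjusted p = 0.000769 among single probes). Each of these 3 calls was lost without repeated-binge array 2 or 4. Mcm7's also went without single-binge array 2 or 3, Prim1's without array 5, and E2f1's without array 4 or 5 (highest adjusted p 0.0885, 0.125 and 0.170). Under median centring in place of loess Mcm2, Mcm7, Pcna and E2f1 were no longer called, and with the software's ratio or the authors' deposited values neither Mcm2 nor E2f1 was. Mcm2 was also called higher against pair feeding (0.33, adjusted p = 0.00817) and against ethanol without a binge (0.29, adjusted p = 0.00972). E2f1 was called higher against ethanol too (0.33, adjusted p = 0.0351), as was Prim1. None of these further calls held under median centring.

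Ccnb2 and Top2a were called higher in the repeated-binge group against ethanol without a binge, by 0.38 ± 0.11 and 0.28 ± 0.08 (adjusted p = 0.0128 and 0.014), and Ccnb2 also against pair feeding, by 0.35 ± 0.11 (adjusted p = 0.0303). Ccnb2 read 0.35, 0.03, 0.36 and 0.07 on the repeated-binge arrays and 0.14, -0.19, -0.43 and -0.12 on the pair-fed ones. Top2a read 0.02, 0.17, -0.05 and 0.10, against -0.26, -0.35, -0.10, -0.10 and -0.27 with ethanol alone. The second Top2a probe differed by 0.05 (adjusted p = 0.701 among single probes). In Cy5 alone, in the order given, these 3 differences were -0.23, -0.00 and -0.37, each of the opposite sign to the ratio. The Ccnb2 call against pair feeding was lost without any of pair-fed arrays 2 and 3 or repeated-binge arrays 1 and 3 (highest adjusted p 0.132). Against ethanol, the Ccnb2 call was lost without repeated-binge array 3 and the Top2a call without array 2 (adjusted p = 0.0539 and 0.0503). Among 51 other mitosis genes, 19 fell and 4 rose against a single binge, with a median of -0.15, where 17.4% of all genes were lower and 12% higher. Of 11 neutrophil markers 4 were lower and 1 higher, with list means from -0.34 to -0.13 over repeated-binge and from -0.03 to 0.39 over single-binge arrays, and their part in these results was not tested. Kif2c, a kinesin, was lower by 0.96 by ratio and differed by -0.09 in Cy5.

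**Figure D5:**
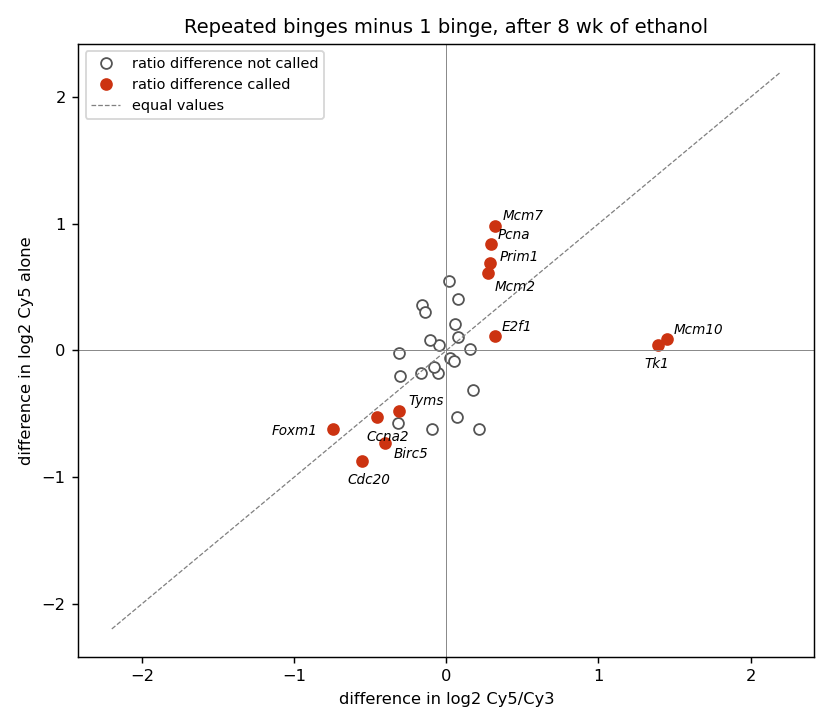
Difference between the repeated-binge and the single-binge group for each of the 33 genes, by log2 ratio (horizontal) and in log2 Cy5 alone (vertical); filled points are called by ratio, and the dashed line marks equal values. Tk1 and Mcm10 lie at 1.39 and 1.45 by ratio and near 0 in Cy5.

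Between the pair-fed groups, which lay in different scans, 0 of the 33 were called by limma, beside 1.05% of all genes higher and 0.488% lower after 8 weeks. Of the 33, 4 had an unadjusted p under 0.05, beside 2410 of all 15562 genes tested. Tk1 differed by -0.56 ± 0.22 (adjusted p = 0.215) and Tyms by 0.32 (adjusted p = 0.0894). In the comparison of ethanol with a binge against pair feeding between the schedules, 1 of the 33 was called, Mcm10, on the lower side, beside 2.42% of all genes lower and 0.952% higher.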

How the data were processed

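The authors' scanner files, read with Agilent Feature Extraction 11.5.1.1 per the submitters' processing notes, hold median spot and background intensity in both channels and a log10 ratio of Cy5 over Cy3, per the file headers. The deposited value table holds log2 values, which followed the log2 ratio of each array's own processed signals with a slope of 1.00. How the table was made is not given in the sources used here.

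From the median intensities, marked spots (1.52% to 7.78% per array) were left out, background was corrected by normexp with an offset of 50, and loess was applied within arrays. Median Cy5 intensity per array was 95.5 to 247, Cy3 161.5 to 505, and 70.5% to 86.7% of probes were well above background in Cy5. The 24 arrays limit the precision. Dye direction follows the labels (Cy5 liver, Cy3 reference), with no dye swap. A probe was kept when 3 or more arrays had it well above background in Cy5 (36648 of 41174), and the brightest kept probe stood for a gene. Symbols came from RefSeq names for GRCm38.p6. 24375 probes had 1 symbol and 16799 had none and are unnamed here.

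One limma 3.58.1 fit (R 4.3.3) over all 24 arrays with 6 group means, lmFit and eBayes, gave 9 comparisons. P-values were adjusted by Benjamini-Hochberg over all genes with values on 2 or more arrays in both groups, and calls are at adjusted p under 0.05. All adjusted p-values are from limma, and the fit was tested on simulated data. Cy5 alone was quantile normalized between arrays. 0 spots were saturated and 0 array pairs identical. The members, gene lists and tests were chosen with earlier results of these data known. All members are described, with array values for members called at least once. Of the other lists, genes among the 3 lowest adjusted p in a comparison were named, apart from the neighbours of Tk1 and Mcm10. One gene that this rule would name is not reported here. Alternatives tried were median centring, offset 10, the software's ratio, the deposited table, Cy5 alone, other filters, single probes, slide and replicate blocks and leaving out each array.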

Additional observations from a re-analysis of the deposited data

Results flagged for a closer look

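For Mcm10 the difference between ethanol with a single binge and pair feeding was larger after 8 weeks than after 10 days, with a difference of the differences of -1.73 (adjusted p = 0.0365 by limma), which is why it is listed. It was called in 13 of the 24 fits that left out 1 array. There was no 10-day ethanol group without a binge, so diet and binge cannot be told apart in it.

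An array far from the others of its group was looked for in 131 gene and group pairs with at least 4 measured arrays, and 3 had one, where chance flags about 1 in 20. E2f1 on 8-week pair-fed array 1 read 0.23, while the other 3 lay between -0.12 and -0.08. Ccna2 on the same array read 0.20, with the others between 0.44 and 0.48. Cdc20 on 8-week ethanol array 5 read -0.33, with the others between 0.24 and 0.39.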

How the results depend on the processing

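Tk1 and Mcm10 after 8 weeks with a single binge (against pair feeding and against ethanol), and Tk1 after 10 days, stayed called under all 12 alternatives and in all 24 fits that left out 1 array. Of the 12 member calls within a scan 7, and of the 30 with the repeated-binge group 19, held in every such fit. The matching shares over all genes were not counted. The causes of the changes below were not tested.

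Member calls changed as follows. For a single binge against ethanol, 5 became 3 under median centring and 2 in Cy5 alone. After 10 days, 3 became 1 under median centring, an offset of 10, the scanner software's ratio, the deposited table and Cy5 alone. For repeated binges against pair feeding 8 became 14 under median centring. Between the pair-fed groups 0 became 1 in Cy5 alone. The interaction's 1 became 0 under median centring, the software's ratio and the deposited table. Leaving out 1 array gave 3 to 6 for a single binge against ethanol (fewest without ethanol array 2), 1 to 3 after 10 days (pair-fed array 1), 5 to 9 for repeated binges against pair feeding (pair-fed array 2) and 0 to 1 for the interaction. In Cy5 alone Ccnb2 reversed to -0.37 and -0.23 (repeated binges against pair feeding and against ethanol), and Top2a to -0.0038 against ethanol.

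Over all genes, ethanol against pair feeding had 24 calls, and 12 under median centring, 11 with the software's ratio, 13 in the deposited table, 37 with marked spots kept and 41 with slide as a random block. Median centring gave 1228 in place of 2567 for a single binge against pair feeding, 1330 in place of 2609 against ethanol, 373 in place of 1132 after 10 days and 162 in place of 521 for the interaction. Cy5 alone gave, in that order after the first, 1394, 277 and 264. Slide as a fixed block gave 670 after 10 days and 218 for the interaction. For repeated binges Cy5 alone gave 7282, 7481 and 7271 in place of 3163, 3856 and 4586 (against pair feeding, ethanol and a single binge), and between the pair-fed groups 1505 in place of 240. Leaving out 1 array gave 5 to 36 for ethanol against pair feeding (fewest without pair-fed array 2), 556 to 1375 after 10 days (binge array 2), 1957 to 3535 for repeated binges against pair feeding (pair-fed array 2), 2951 to 4991 against a single binge (repeated-binge array 4), and, both without 10-day pair-fed array 2, 22 to 420 between the pair-fed groups and 322 to 653 for the interaction.

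The share of calls that were higher moved by over 10 points. In Cy5 alone it was 19.0% in place of 41.7% for ethanol against pair feeding, 17.8% in place of 46.4% and 27.9% in place of 48.9% for a single binge against pair feeding and ethanol, and 9.09% in place of 28.2% for the interaction. For repeated binges it was 50.8%, 53.6% and 61.2% in place of 39.1%, 40.9% and 40.9%, where the software's ratio gave 53.7%, 56.5% and 57.0%, and the authors' deposited values gave 54.1%, 56.4% and 58.2%. Median centring gave 62.3% for a single binge against ethanol, 72.7% in place of 59.8% after 10 days, 29.3% for repeated against single binges and 97.0% in place of 68.3% between the pair-fed groups. It set the median of all genes at -0.11 and -0.14 for repeated binges against pair feeding and a single binge, and Cy5 alone set the interaction's at -0.11.

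With the replicate number as a replicate block, all genes gave 11 calls for ethanol against pair feeding and 660 between the pair-fed groups (80.2% higher), where 2 members were called, and E2f1 (repeated binges against ethanol and a single binge) and Prim1 (against ethanol) lost their calls. Same-numbered arrays on different slides deviated together at a median r of 0.00052 over 42 pairs, beside -0.0064 over 181 pairs with different numbers. On shared slides the median r was 0.10 over 10 same-numbered pairs and 0.20 over 5 pairs with different numbers. No pairing by number showed in these medians, which cannot exclude one. A fixed slide block could not be fitted for the repeated-binge group or between the pair-fed groups. Signal over background limits Cdc6, Pola1 and Bub1b, and also the small differences of Cdk1 and Cdk2.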
